A study of Homo sapiens with 6 samples.

Results

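STC1 and STC2 encode the stanniocalcins, a pair of related secreted glycoproteins. Both genes were lower in HEK293 cells carrying a myocilin vector than in cells carrying the control vector, by about the same amount. The 2 genes were taken from 18338 genes with a value in the deposited table, and their members were all probe sets that the platform annotation assigns to STC1 or STC2 alone, which gave 5 of 41751 probe sets, 3 for STC1 and 2 for STC2. The pair was chosen with the difference between the lines already known, so that difference is described here and is not tested.

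Stanniocalcin was first known as a hormone of bony fish that lowers blood calcium. Mammalian STC1 and STC2 act mostly near the cells that release them, and both bind and inhibit the pappalysins PAPP-A and PAPP-A2, proteases that free insulin-like growth factors (IGFs) by cutting their binding proteins. STC2 is a known target of ATF4, the transcription factor of the integrated stress response, and of oestrogen receptor in breast cells. Both genes are known to be induced by hypoxia, and STC1 is made in the kidney, the organ from which the HEK293 line was derived.

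The study compared 2 stable Tet-On HEK293 lines, in which doxycycline switches on the inserted gene, with 3 Affymetrix HG-U133 Plus 2.0 arrays for each. The control line carried the control vector and the other line the vector for myocilin, a secreted protein of the eye's outflow tissue, and cells of both lines grew in hygromycin B and G418. The protocols give 0.2 or 1 µg/ml doxycycline for 48 h without saying which dose belongs to which array, and the drug is named in the sample descriptions of the myocilin arrays only. Each genotype is 1 stable line, the labels do not say whether a line is 1 clone, and nothing says that its arrays came from separate cultures, so the spread between arrays may be technical and the insert cannot be told apart from other differences between the lines. MYOC read -6.71, -8.32 and -8.29 in the control line, against 0.21, 0.20 and 0.24 in the myocilin line, the direction that the labels imply. All values are the authors' values on a log scale, read here as log2. Each array has a median of 0 and an SD between 0.17 and 0.20 over its probe sets. In 57.3% of the probe sets, some array read exactly 0. The values were therefore read as centred for each probe set, although how they were centred is not stated. They show differences between arrays, not levels, so neither the abundance of a stanniocalcin transcript nor the presence of kidney markers can be read from them, and no probe set is compared in level with another.

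The promoter of STC2 is shown because STC2 differed between the lines and its start region was searched for short elements known from stress, hypoxia and oestrogen control. The RefSeq window of GRCh38.p14 covers 250 bases before and 50 bases after the start of the gene, on the minus strand of chromosome 5 (chr5:173328365-173328664), and capitals mark the matches described below.
STC2: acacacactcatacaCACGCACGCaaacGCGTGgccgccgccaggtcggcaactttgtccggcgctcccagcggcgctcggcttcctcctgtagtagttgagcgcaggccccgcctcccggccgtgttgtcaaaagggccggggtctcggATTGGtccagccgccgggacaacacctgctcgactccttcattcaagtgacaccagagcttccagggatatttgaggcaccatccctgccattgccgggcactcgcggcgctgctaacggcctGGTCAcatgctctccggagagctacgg

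Of the window's bases, 64% are G or C, against a median of 58.7% over 35116 RefSeq windows of the same length. Both strands were searched for 7 motifs. GCGTG, 1 form of the hypoxia response core, matched 3 times, beginning at bases 16, 20 and 29 of the window. The first 2 matches are on the opposite strand and share 1 base. Of all windows, 36.5% hold at least 1 match, and how many hold 3 was not counted. CCAAT matched once, on the opposite strand from base 151 (34.6% of windows). GGTCA, the core of the oestrogen response element, matched once from base 274, within the transcribed part (37.4% of windows). TGATGNAAN, the C/EBP-ATF response element that ATF4 binds, had 0 matches (3.61% of windows), as had the other hypoxia response core ACGTG (21.4%), the cyclic AMP response element TGACGTCA (1.85%) and the E-box CACGTG, which contains ACGTG (7.26%). These matches describe letters in 1 short window and say nothing of whether a factor binds there. The table has no entry for STC1.

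STC2 was lower on every myocilin array than on any control array, with both of its probe sets. Probe set 203438_at read 0.51, 0.82 and 0.43 for control arrays 1 to 3, against -0.35, -0.39 and -0.37 for myocilin arrays 1 to 3. The groups were separated by a gap of 0.78, and the myocilin arrays lay close together while control array 2 stood above the other two. The means were 0.59 ± 0.21 and -0.37 ± 0.015 (SD, n = 3 each), a log2 difference of -0.96 or 1.94-fold.

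Probe set 203439_s_at read 0.41, 0.79 and 0.13 in the control line, against -0.74, -0.82 and -0.77 in the myocilin line. It had the same array at the top, a wider spread among controls and again a tight myocilin group. The means were 0.44 ± 0.33 and -0.78 ± 0.041 (SD, n = 3 each), a log2 difference of -1.22 or 2.33-fold, the most negative of the 5 probe sets.

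STC1 was also lower on every myocilin array than on any control array, with each of its 3 probe sets. Probe set 204595_s_at read 0.42, 0.55 and 0.44 in the control line, against -0.49, -0.41 and -0.85 in the myocilin line. Here the control arrays were the tighter group and myocilin array 3 was the lowest. The means were 0.47 ± 0.067 and -0.58 ± 0.24 (SD, n = 3 each), a log2 difference of -1.05 or 2.08-fold.

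Probe set 204596_s_at read 0.26, 0.69 and 0.39 in the control line, against -0.85, -0.19 and -0.49 in the myocilin line. It varied most within the lines and had the smallest gap between the groups, 0.45. The means were 0.45 ± 0.22 and -0.51 ± 0.33 (SD, n = 3 each), a log2 difference of -0.96 or 1.94-fold.

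Probe set 204597_x_at, whose suffix marks probes that can match other transcripts, read 0.34, 0.47 and 0.36 in the control line, against -0.78, -0.52 and -1.05 in the myocilin line. Its myocilin arrays spread about as widely as those of 204595_s_at, and array 2 was the highest of them in each of the 3 STC1 probe sets. The means were 0.39 ± 0.069 and -0.79 ± 0.27 (SD, n = 3 each), a log2 difference of -1.18 or 2.26-fold.

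**Figure D1:**
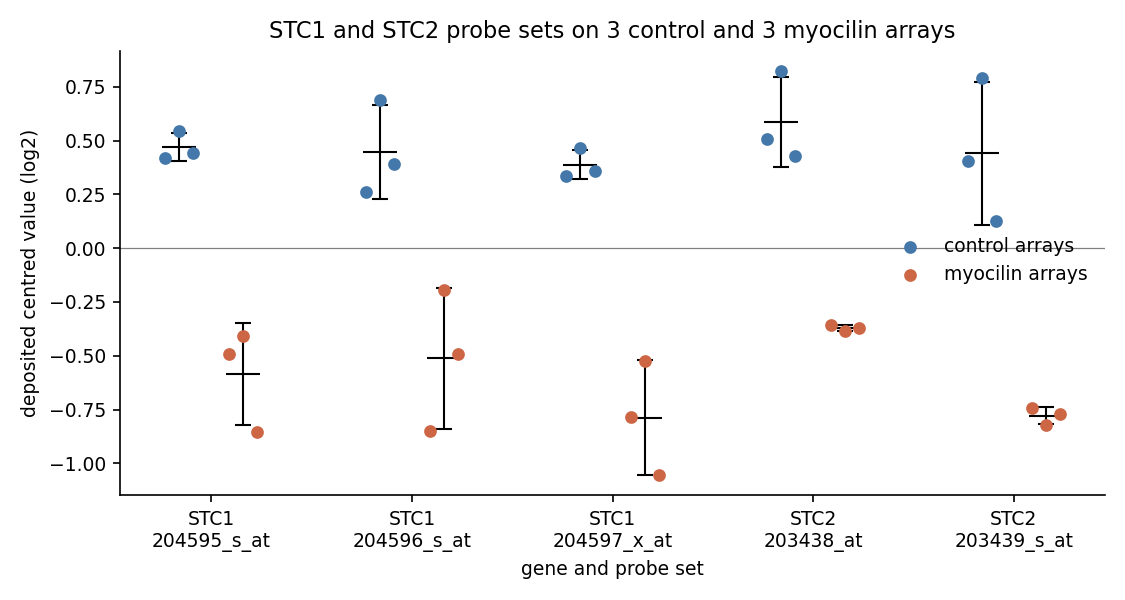
Deposited centred values (log2, vertical axis) of the 3 STC1 and 2 STC2 probe sets on the 3 control and 3 myocilin arrays, drawn left to right as arrays 1 to 3; horizontal marks are group means and bars are SD. The groups do not overlap for any of the 5 probe sets, the STC2 myocilin points lie close together, and the STC1 myocilin points are spread, with array 2 at the top.

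In all, the groups did not overlap for 5 of 5 probe sets, where 14.8% of all probe sets had every myocilin array below every control array. In the limma fit over all probe sets (adjusted p under 0.05), 5 of 5 were counted as lower, where 5.56% of all probe sets were. Because the pair was chosen on this contrast, these counts describe the members and support nothing further. The probe sets of a gene differed from one another by 0.22 for STC1 and 0.26 for STC2 in their log2 difference, against a median of 0.18 over the 9841 genes with at least 2 probe sets. All probe sets had the same sign in 52.2% of those genes.

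Averaged over its probe sets, STC2 was 0.51 ± 0.27 in the control line and -0.57 ± 0.028 in the myocilin line (SD, n = 3 each). This is a log2 difference of -1.09 ± 0.11 (SE), or 2.13-fold. STC1 was 0.44 ± 0.12 and -0.63 ± 0.22 (SD, n = 3 each), a log2 difference of -1.06 ± 0.11 (SE), or 2.09-fold. The 2 differences lie well within their errors of each other. Among 18338 genes, STC2 held place 23 and STC1 place 26 in the order from the most negative difference, where 0.169% of all genes were at least 2-fold lower. SESN2 at -1.09 and DDIT4 at -1.08, both inhibitors of mTORC1 signalling, stood between them in that order (named after their values were seen).

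**Figure D2:**
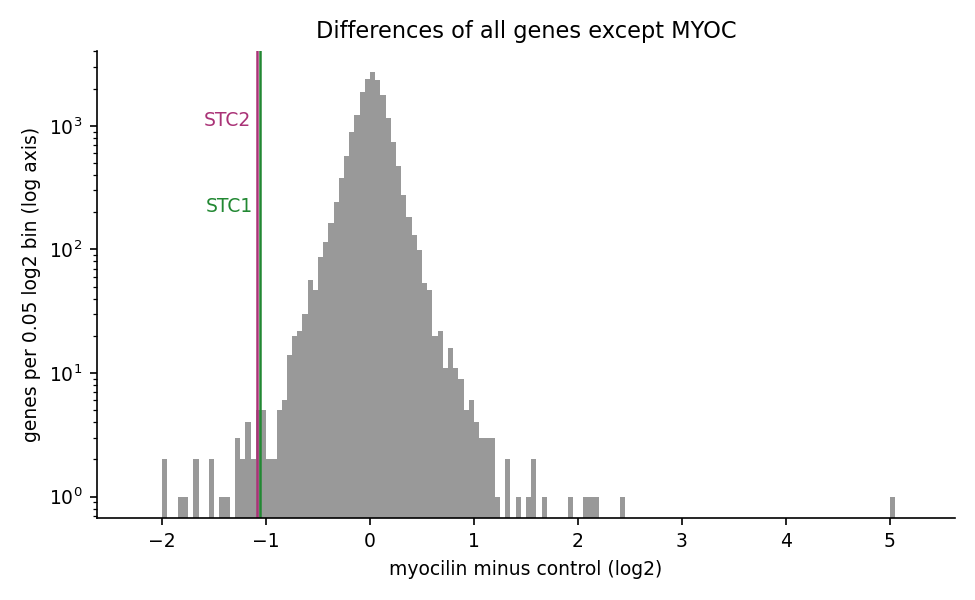
Histogram of the myocilin minus control difference (log2, horizontal axis) of all genes except MYOC, with the number of genes per bin on a log axis. The lines for STC1 (-1.06) and STC2 (-1.09) nearly coincide in the sparse lower tail, while the median of all genes is 0.018.

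The pair differed in how it varied within a line. The value of STC2 minus that of STC1 was 0.12, 0.24 and -0.12 in the control line, against 0.16, -0.23 and 0.23 in the myocilin line, so neither line held a steady offset between the 2 genes. STC2 was highest on control array 2 (0.81) and nearly level over the myocilin arrays (-0.55, -0.60 and -0.57). STC1 was also highest on control array 2, though nearer to level over the control arrays (0.34, 0.57 and 0.40). It was least low on myocilin array 2 (-0.71, -0.37 and -0.80).

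The genes with the most similar pattern were found by Pearson correlation of gene means over the 6 arrays, among genes whose SD over the arrays was at least 0.5 times that of the member. The arrays fall into 2 lines, so a high r mostly records a difference between the lines in the same direction, and it is given as a description. For STC2, 430 genes were compared and the 6 most alike were SLC1A4 (r = 0.999), a neutral amino acid transporter, OGT (0.998), the enzyme that adds O-linked N-acetylglucosamine to proteins, DDIT4 (0.997), LRRC8D (0.996), a subunit of volume-regulated anion channels, LINC00342 (0.995) and ZNF780A (0.995). Of these, SLC1A4 and DDIT4 belong to the list of ATF4-driven genes. SLC1A4 read 0.10, 0.36 and -0.05 in the control line, against -0.58, -0.62 and -0.57 in the myocilin line, which repeats the high control array 2 and the level myocilin arrays of STC2.

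For STC1, 470 genes were compared and the 6 most alike were SYT1 (r = 0.996), a calcium sensor of vesicle release, TMT1A (0.995), TMBIM4 (0.995), ST6GALNAC3 (0.992), a sialyltransferase, FBLL1 (0.990) and IMPACT (0.990), an inhibitor of the eIF2 kinase GCN2. None of the 6 is on a list used here. SYT1, TMT1A and TMBIM4 all lie on chromosome 12, and ST6GALNAC3, FBLL1 and IMPACT on chromosomes 1, 5 and 18. Whether position plays a part was not tested. SYT1 read 0.18, 0.28 and 0.19 in the control line, against -0.40, -0.30 and -0.50 in the myocilin line, with myocilin array 2 least low as in STC1. The stanniocalcins themselves were alike at r = 0.95, which placed STC1 at 107 of 430 genes for STC2 and STC2 at 114 of 470 for STC1. Many genes were thus more like each member than its paralogue was.

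**Figure D3:**
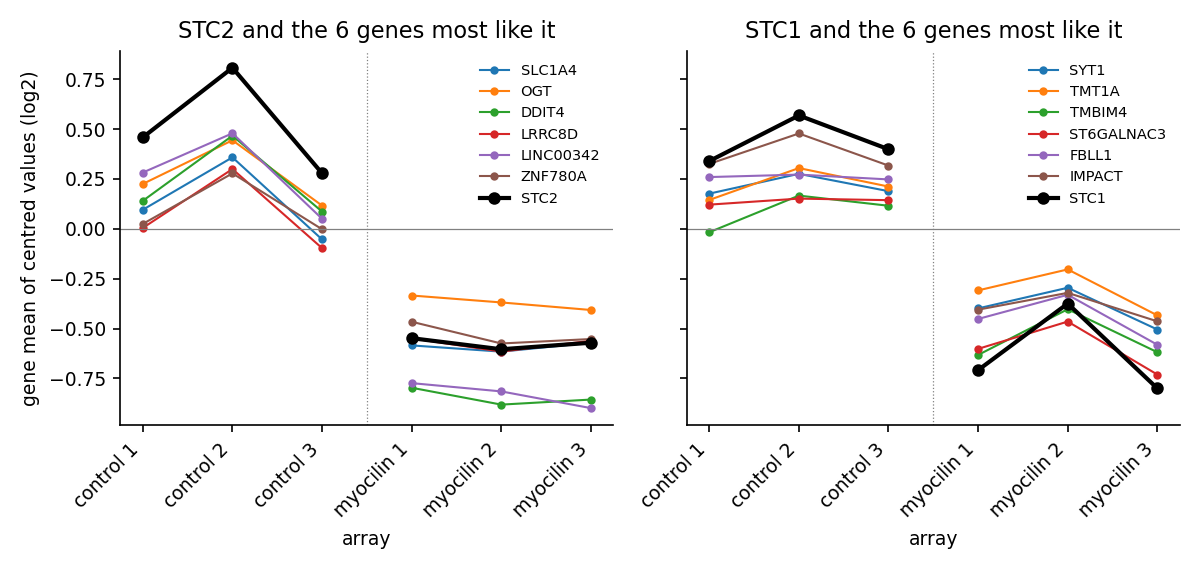
Gene means of centred values (log2, vertical axis) on each array for STC2 (left) and STC1 (right), in black, with the 6 genes most correlated with each; lines join arrays of 1 line only to guide the eye, since replicates have no order. In both panels the member and its neighbours in pattern are highest on control array 2. Over the myocilin arrays STC2 and its neighbours are nearly flat, while STC1 and its neighbours are least low on array 2.

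ATF4-driven genes, the first group around the pair, are switched on when the eIF2 kinases sense amino acid shortage, unfolded protein or other stress. Of 39 measured, 27 fell, 2 rose and 10 did not pass the test in the gene fit (limma, adjusted p under 0.05), where 7.35% of all genes fell and 8.28% rose. Every list used here was chosen with earlier results of these data known, so its counts are a description. The median log2 difference was -0.45, against 0.018 over all genes, and 7 of the 39 were lower than STC1 was. On average over the list the value was 0.12, 0.32 and -0.01 in the control line, against -0.42, -0.42 and -0.33 in the myocilin line, so control array 2 was the highest here too. With each gene's own variance in place of limma's shared estimate, the test called 44 of all genes in place of 2866, with 1 ATF4-driven gene lower and no more than 1 gene in either direction in any of the lists described below.

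SLC7A3, which carries arginine and lysine into cells, fell by 1.84 ± 0.06 (log2, SE, limma adjusted p = 9.616e-07). SLC7A11, which exchanges cystine for glutamate, fell by 1.77 ± 0.13, and CHAC1, which breaks down glutathione, fell by 1.55 ± 0.13. PPP1R15A, which directs the phosphatase that reverses eIF2 phosphorylation, rose by 0.75 ± 0.06 (limma adjusted p = 0.0001179). The sign of PPP1R15A is thus opposite to that of most of the list. Its 2 probe sets read 0.74 and 0.77.

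Of the regulators, EIF2AK1, the haem-regulated eIF2 kinase, fell by 0.24 (limma adjusted p = 0.03284). ATF4 itself differed by -0.21 (adjusted p = 0.0726), and its groups did not overlap, as was so in this direction for 16% of all genes. The other kinases EIF2AK2, EIF2AK3 and EIF2AK4 differed by -0.06, 0.05 and -0.10, the eIF2 subunit gene EIF2S1 by 0.11 and the phosphatase subunit gene PPP1R15B by -0.01, none past the threshold. All of these differed less than either stanniocalcin, but the pair was chosen on this contrast, so that comparison carries no weight. The values are of transcripts, and protein amount and phosphorylation were not measured.

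The array pattern of the pair was set beside that of the lists among genes that were lower in the myocilin line, since a gene with the opposite sign cannot correlate highly. Of the 17 lower ATF4-driven genes that varied enough to be compared with STC2, 15 (88.2%) correlated with it above 0.95, where 49.5% of all 214 lower genes did. Of the 18 compared with STC1, 6 (33.3%) did so, where 48.9% of all 231 lower genes did. The hypoxia-inducible genes had 4 such genes for each member, of which 2 passed 0.95 with STC2 and 4 with STC1. The other 3 lists had at most 1 such gene. These counts were added after the patterns were seen and have no test, and all values come from the same 6 arrays.

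Hypoxia-inducible genes, targets of the HIF factors that include enzymes of glycolysis and growth factors, formed the second group. Of 37 measured among 38 listed, 14 fell, 3 rose and 20 did not pass, where 7.35% of all genes fell and 8.28% rose, and the median was -0.13. The 3 rises are near the share over all genes. The number that fell was 9 without control array 1 and 7, with 1 rise, without the _x_at and _s_at probe sets. SLC2A3, a glucose transporter, fell by 1.01 ± 0.07 (log2, SE, limma adjusted p = 3.946e-05), and DDIT4, which is also on the ATF4 list, fell by 1.08 ± 0.09. NDRG1, a stress-responsive gene often used as a hypoxia marker, rose by 0.85 ± 0.10 and MXI1, an antagonist of MYC, by 0.57 ± 0.06.

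SLC2A3 read 0.53, 0.62 and 0.46 in the control line, against -0.48, -0.39 and -0.56 in the myocilin line, with myocilin array 2 least low as in STC1. The oxygen-regulated subunit genes HIF1A and EPAS1 differed by -0.07 and -0.08, their partner ARNT by -0.02, the hydroxylase gene EGLN2 by 0.10 and HIF1AN, an inhibitor of HIF, by 0.05. None of these regulators passed the threshold.

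The PAPP-A and IGF axis holds the proteases that stanniocalcins inhibit and what lies downstream of them. Of 17 genes measured among 18, 2 fell, 2 rose and 13 did not pass, with a median of -0.0024. With 7.35% of all genes lower and 8.28% higher, these counts are near the background. PAPPA, measured by 11 probe sets, differed by 0.03 (adjusted p = 0.7604) and PAPPA2 by -0.01 (adjusted p = 0.9188). IGFBP4, a main substrate of PAPP-A, differed by -0.05 (adjusted p = 0.7046). No difference in the transcripts of the direct partners was therefore detected with 3 arrays per line. Whether these genes are expressed in the cells cannot be read from centred values.

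Among the other binding protein genes, IGFBP5 and IGFBP2 passed the test, while IGFBP1, IGFBP3, IGFBP6 and IGFALS, at -0.0024, -0.06, -0.20 and -0.15, did not. IGFBP5, also cut by the pappalysins, read 0.32, 0.45 and 0.35 in the control line, against -0.54, -0.58 and -0.44 in the myocilin line. It fell by 0.89 ± 0.06 (log2, SE, limma adjusted p = 5.574e-05), with its 6 probe sets between -1.42 and -0.20. IGFBP2 fell by 0.32 ± 0.07. IRS2, an adaptor of the insulin and IGF receptors, rose by 0.88 ± 0.06, and IGF2R, the receptor that clears IGF2, rose by 0.45 ± 0.07. The IGF1 receptor gene IGF1R differed by -0.01 and did not pass.

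Genes of calcium and phosphate handling, the process for which stanniocalcins are named hormones in fish, mostly did not pass. Of 34 measured among 36, 2 fell, 1 rose and 31 did not pass (8.82% called, where 15.6% of all genes were), with a median of 0.017. The centred values do not show which of them are expressed, so not passing does not mean steady expression. UCP2, a mitochondrial carrier that STC1 is known to induce in macrophages, read 0.57, 0.35 and 0.41 in the control line, against -0.18, -0.18 and -0.10 in the myocilin line. It fell by 0.60 ± 0.07 (log2, SE, limma adjusted p = 0.0008231) and its probe sets read -0.66 and -0.53.

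The other genes to change were 2 of the 5 store-operated calcium genes listed. STIM2, a sensor of calcium in the endoplasmic reticulum, fell by 0.28 ± 0.06 and ORAI3, a channel subunit, rose by 0.41 ± 0.08. Of the other store-operated genes, ORAI1 differed by 0.17 and ORAI2 by -0.05, neither past the threshold. STIM1, the sensor that STC2 is known to bind, differed by 0.10 (adjusted p = 0.3673), CASR, the calcium-sensing receptor, by 0.03 (adjusted p = 0.7426) and HMOX1, which breaks down haem, by 0.06 (adjusted p = 0.827). Only 1 gene of this list fell without control array 3, without myocilin array 1 and without myocilin array 3, and 2 rose in the last case.

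Oestrogen-responsive genes, to which STC2 belongs in breast cells, moved in both directions. Of 23 measured among 24, 5 fell, 5 rose and 13 did not pass (43.5% called, where 15.6% of all genes were), with a median of 0.035. PGR, the progesterone receptor gene, rose by 1.60 ± 0.09 (log2, SE, limma adjusted p = 1.993e-05), though its probe sets read 0.55 and 2.64, and MYC rose by 0.67 ± 0.08. SLC39A6, a zinc transporter, fell by 0.38 ± 0.06 and SIAH2, a ubiquitin ligase, by 0.32 ± 0.06. PGR and STC2 therefore differed between the lines with opposite sign.

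The receptor genes ESR1, ESR2 and GPER1 differed by 0.11, 0.12 and -0.04, and the factor gene GATA3 by 0.07, none past the threshold. FOXA1, whose protein opens chromatin for oestrogen receptor, fell by 0.26 (limma adjusted p = 0.03321). The count of falls was 3 without control array 3, without myocilin array 1 and without myocilin array 2. The count of rises was 3 without control array 3 and 2 when any other array was left out.

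**Figure D4:**
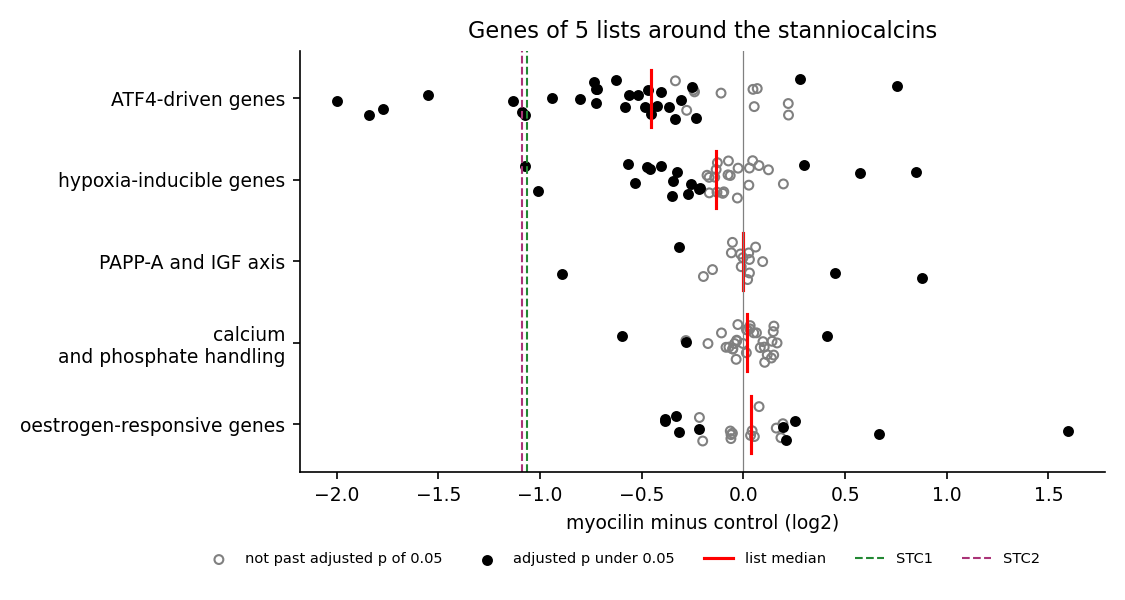
Myocilin minus control difference (log2, horizontal axis) of each measured gene in 5 lists, with filled points past the threshold, open points not past it, red bars at list medians and dashed lines at STC1 and STC2; vertical scatter within a list has no meaning. The ATF4-driven genes lie mostly left of 0 with a median of -0.45, and 7 of them lie beyond STC1, while the other 4 medians are between -0.13 and 0.035.

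The genes next to the pair on their chromosomes did not share the lower values. Because the pair was chosen on this contrast, its place below its neighbours is a description and supports nothing further. STC2 lies on chromosome 5, and of the 10 nearest measured genes on each side 0 fell and 2 rose, with differences of -0.24 to 0.24 and a median of -0.03. On the whole chromosome 75 of 811 measured genes fell and 60 rose, so 0 falls and 2 rises among 20 are near the background. The lowest of them was ERGIC1 at -0.24 (limma adjusted p = 0.05796). The 2 that rose, named after their values were seen, were CREBRF, a regulator of the unfolded protein response, by 0.24 and DUSP1, a phosphatase of MAP kinases, by 0.22.

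STC1 lies on chromosome 8, and of its 20 neighbours 0 fell and 5 rose, with a range of -0.05 to 1.42 and a median of 0.13. On the whole chromosome 76 of 648 measured genes rose and 24 fell, and the median was 0.055. The 0 falls among the 20 neighbours are therefore near the background. The 5 that rose, named after their values were seen, were NEFM, a neurofilament gene, by 1.42, the death receptor gene TNFRSF10A by 0.50, GNRH1 by 0.32, TNFRSF10A-DT by 0.28 and PPP2R2A by 0.23. Of these, TNFRSF10A and TNFRSF10A-DT lie side by side, and whether 5 rises exceed the share on the chromosome was not tested. That STC1 was lower where its neighbours were level or higher is a description, since STC1 was chosen on this contrast.

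**Figure D5:**
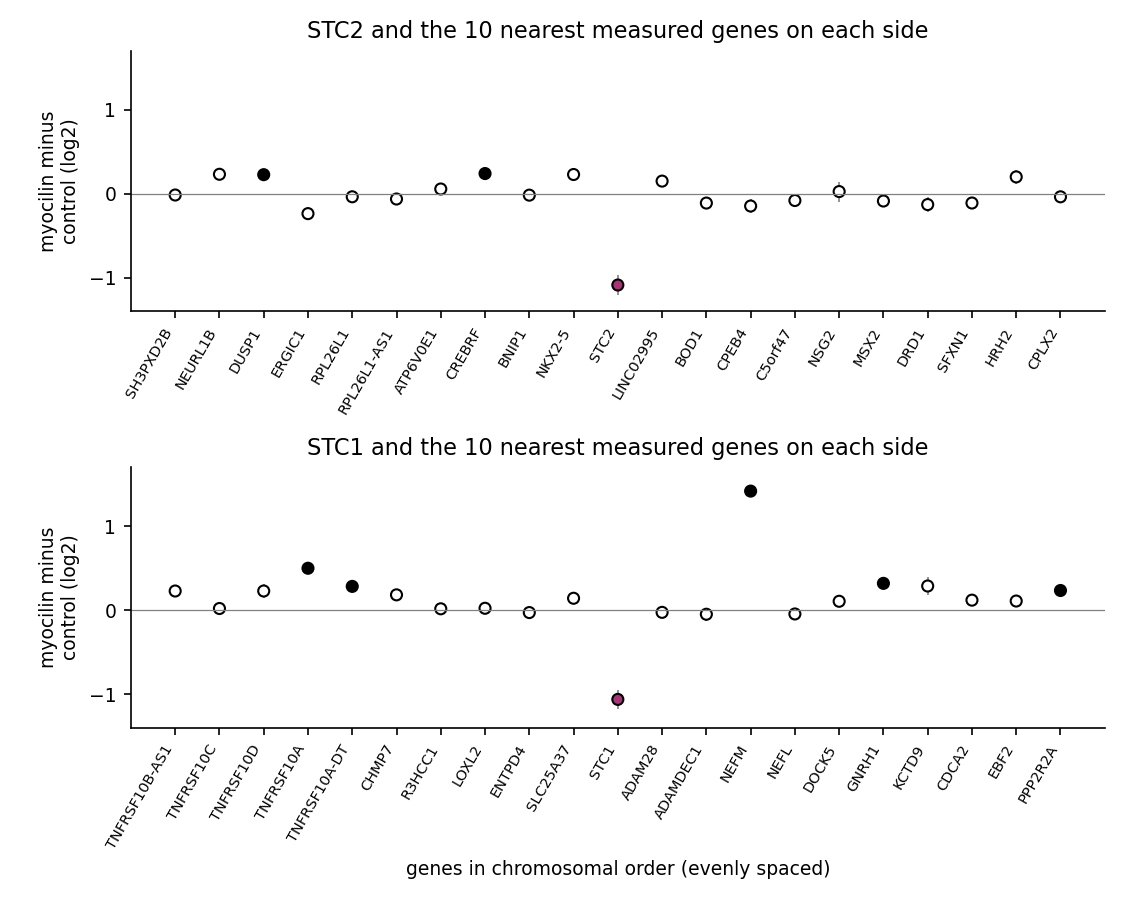
Myocilin minus control difference (log2, vertical axis) with its standard error for STC2 (top) and STC1 (bottom), in purple, and the 10 nearest measured genes on each side in chromosomal order, evenly spaced; black points passed the threshold and open points did not. STC2 at -1.09 and STC1 at -1.06 stand alone below their neighbours, the lowest of which are at -0.24 and -0.05. The pair was chosen on this contrast.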

How the data were processed

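Total RNA of 6 HEK293 samples, 3 per line, was measured on 1-colour Affymetrix arrays. The authors deposited a table of positive and negative values, read here as log2. How background, summarisation and normalisation were handled, and the log base, is not stated in the sources used here. The median is 0 on each array, and no depth or detection call is available, so precision is limited by 3 arrays per group. Arrays were grouped by source name.

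Of 41751 probe sets, 37460 were annotated to 1 gene, 1728 to several and 2563 were not listed; Entrez IDs of 37416 matched the RefSeq table of GRCh38.p14. Probe sets of 1 gene were averaged. The lines were fitted as 2 groups in limma 3.58.1 under R 4.3.3, with moderated two-sided tests adjusted by Benjamini-Hochberg over all probe sets or all genes, at 0.05, after the functions were checked on simulated data. Differences are myocilin minus control, and a p-value reflects the spread among these arrays alone.

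The members, the lists and the rule for named genes were chosen with earlier results of these data known. The rule took every STC1 and STC2 probe set, up to 4 genes per list by p, all list regulators, PAPPA, PAPPA2, IGFBP4, STIM1, CASR, UCP2, HMOX1, MYOC and the 6 genes most like each member. Alternatives were quantile normalisation, array weights, a variance trend with robust fitting, a Welch test per feature, leaving out _x_at and _s_at probe sets, 1 probe set per gene and leaving out each array.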

Additional observations from a re-analysis of the deposited data

How the results depend on the processing

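STC2 and STC1 kept their sign and moved by less than the spread between replicates under every alternative run for them. With 1 array left out, the log2 difference was -1.21 to -0.94 for STC2 and -1.19 to -0.98 for STC1. Without the _x_at and _s_at probe sets, STC2 was -0.96, and no STC1 value could be made, since all 3 of its probe sets have such an ending. No paired analysis was possible because the lines share no replicate numbers in the labels.

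Counts moved more. The Welch test per feature, which estimates each variance from 3 arrays, called 26 probe sets and 44 genes in place of 4603 and 2866. It left 1 ATF4-driven gene lower and 0 higher, 1 hypoxia-inducible gene lower and 0 higher, 1 gene lower and 1 higher of the PAPP-A and IGF axis, and 0 and 0 for calcium and phosphate handling and for oestrogen-responsive genes. Without _x_at and _s_at probe sets, which tests fewer genes, 2695 probe sets and 1878 genes were called, with 7 hypoxia-inducible genes lower and 1 higher, 0 of the PAPP-A and IGF axis higher, and 3 oestrogen-responsive genes lower and 1 higher. With 1 probe set per gene, 1 ATF4-driven gene was higher and 3 oestrogen-responsive genes lower, and with trend and robust fitting 3 oestrogen-responsive genes were lower; the cause was not tested. With 1 array left out, the ranges were 2281 to 3283 probe sets, 1613 to 2220 genes, 21 to 27 and 2 to 3 ATF4-driven genes lower and higher, 9 to 13 hypoxia-inducible genes lower, 1 to 3 and 1 to 2 genes of calcium and phosphate handling lower and higher, and 3 to 4 and 2 to 3 oestrogen-responsive genes lower and higher.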
